A study of Mus musculus with 3 samples.

Results

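The genes described here encode the plasma membrane and lysosomal carriers that move amino acids and the transmitters and osmolytes related to them, namely the families SLC1, SLC3, SLC6, SLC7, SLC36, SLC38 and SLC43. They were chosen by symbol alone, as every gene of these families in the matrix, and 52 of the 24335 gene symbols met the rule. By family these were 6 SLC1, 1 SLC3, 15 SLC6, 14 SLC7, 3 SLC36, 10 SLC38 and 3 SLC43 genes. The tissue was the epididymis, the long duct where sperm mature after leaving the testis, of untreated wild-type mice of the C57BL/6 strain at 56 days of age, and RNA was read cell by cell. The groups were its 3 regions, the caput next to the testis, the corpus in the middle and the cauda, where sperm are stored, with 1 library each. The sources used here do not say how many mice gave tissue to each library.

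Amino acids enter and leave cells through carriers that differ in their driving force. SLC1, SLC6 and many SLC38 carriers use the sodium gradient to concentrate their substrates, whereas most SLC7 carriers exchange one amino acid for another, and many of these reach the membrane only when paired with a heavy chain of the SLC3 family. In the epididymis, principal cells line the duct, secrete and absorb luminal fluid and protein, clear cells acidify the lumen, and basal cells lie beneath both. The luminal fluid is known to be rich in glutamate, taurine and carnitine, whose amounts differ along the duct.

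The matrix held 14845 cells, and the libraries totalled 41500792 (caput), 21495211 (corpus) and 18341476 (cauda) unique molecular identifiers (UMIs, tags that count single captured RNA molecules). Cells with at least 200 detected genes were sorted into classes by marker genes, which gave 1905 caput, 1641 corpus and 927 cauda principal cells, 647, 378 and 100 clear cells, 370, 148 and 63 basal cells, 360, 565 and 850 stromal cells and 183, 491 and 705 immune cells. The markers, on which the gate itself selects, matched the names. Among these 5 classes the summed level of a class's own markers was highest in that class in each region. Seen were 29 or 30 of 30 principal, 8 of 8 clear, 7 or 8 of 8 basal and 15 of 15 immune markers. The stromal class joined fibroblasts with muscle cells and pericytes, and all markers of both lists were seen in each region. In stromal cells of the caput, corpus and cauda, fibroblast markers summed to 23469, 50370 and 106316 CPM. Muscle and pericyte markers summed to 4034, 822 and 1195 CPM there. Principal markers were also seen in every other class. Whether this was free RNA of principal cells or came from mixed cells was not tested. Summed principal markers in the clear, basal, stromal and immune cells stood at 20.3% to 32.5% of their principal level in the caput, 14.4% to 21.1% in the corpus and 4.40% to 6.74% in the cauda. Between 14 and 21 cell barcodes were shared by each pair of libraries. Levels are UMIs per 1000000 UMIs of the gated cells (CPM), and every interval is an exact 95% interval that covers counting error only. Nothing was tested, because each region is a single library: regions and libraries cannot be told apart, and cells of 1 library are not replicates. A gene was called different when it had at least 20 UMIs in both groups together, a CPM ratio of at least 4 and an interval of that ratio beyond 2.

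All 52 genes had at least 1 UMI, but depth set how many could be read. Over all cells kept, 9 had fewer than 20 UMIs, 11 had at least 20 but under 100, and 32 had at least 100. Of the 137193 UMIs of the 52 genes, 47.5% belonged to Slc38a5. In caput principal cells the 52 genes summed to 2816 CPM, against 724 CPM in the corpus and 896 CPM in the cauda. Without Slc38a5 the sums were 946, 723 and 891 CPM, so the summed level without this gene varied little along the duct while single members differed by up to 3 orders of magnitude.

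Sequence before the RefSeq start is shown for 4 of the genes whose principal-cell levels differed between regions, 2 of which were higher in the caput (Slc38a5 and Slc1a1) and 2 higher further down (Slc38a4 and Slc7a15). The sequences are those of RefSeq on GRCm38.p6, whose promoter table held 34 of the 52 genes with 54 start sites. Each is taken from the 250 bases before the outermost start and trimmed to its longest stretch outside exons annotated in GENCODE M21. The Slc38a5 stretch lies before the RefSeq start but inside the gene as GENCODE gives it (X, 8271133 to 8280179), 128 bases after that annotation's start and outside its exons, whereas the other 3 stretches lie before the GENCODE gene. Capitals mark an E-box (CACGTG), the only motif found. They run 5′ to 3′ on the gene's strand, from chrX:8271261-8271380 (plus strand), chr19:28834885-28835048 (plus), chr15:97055957-97056206 (minus) and chr12:8599067-8599316 (minus).
Slc38a5: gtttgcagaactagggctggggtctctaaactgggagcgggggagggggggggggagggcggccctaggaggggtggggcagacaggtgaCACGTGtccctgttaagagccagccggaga
Slc1a1: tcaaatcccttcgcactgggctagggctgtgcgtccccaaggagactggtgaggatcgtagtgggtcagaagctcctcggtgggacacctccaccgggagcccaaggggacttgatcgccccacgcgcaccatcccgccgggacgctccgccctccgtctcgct
Slc38a4: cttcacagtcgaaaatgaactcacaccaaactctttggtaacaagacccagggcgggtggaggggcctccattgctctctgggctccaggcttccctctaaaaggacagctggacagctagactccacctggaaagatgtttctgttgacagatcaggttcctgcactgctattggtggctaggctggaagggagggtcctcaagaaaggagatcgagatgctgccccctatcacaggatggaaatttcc
Slc7a15: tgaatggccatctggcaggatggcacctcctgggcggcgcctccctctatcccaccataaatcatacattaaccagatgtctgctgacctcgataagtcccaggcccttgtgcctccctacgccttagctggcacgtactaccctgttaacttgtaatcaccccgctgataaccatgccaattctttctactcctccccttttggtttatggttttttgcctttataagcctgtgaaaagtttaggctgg

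The search for motifs covered 4 of them, on both strands of the whole 250-base windows. The E-box CACGTG was found 30 to 25 bases before the Slc38a5 RefSeq start, in 7 of the 54 windows of the transporter genes and in 6.02% of all 32851 windows of the table. The androgen receptor half-site AGAACA was in 8 of the 54 windows and 16.1% of all windows, the amino acid response element TGATGNAA in 3 and 3.45%, and the antioxidant response element TGACNNNGC in 8 and 10.2%. None of these 3 was in the outermost window of any of the 4 genes shown. Slc38a4 and Slc7a15 have 3 and 2 starts in the table, and their other windows were not read singly. A match, or its absence, describes only these letters in this window. The outermost windows of Slc38a5, Slc1a1, Slc38a4 and Slc7a15 were 55.2%, 70.4%, 52.8% and 50% G and C. The median was 58.6% over the 54 windows of the transporter genes and 52.4% over all windows.

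The first comparison asked how the transporters of principal cells differed between caput and corpus. Slc38a5, Slc7a5, Slc7a8 and Slc1a1 were far higher in the caput, while Slc6a6, Slc38a4 and Slc7a4 were higher in the corpus. Of the 52 genes 34 had enough UMIs to compare, 9 were called higher in the caput, where 7.18% of all 14621 genes compared were, and 7 were called higher in the corpus, where 6.81% were. The median log2 ratio of caput over corpus was 0.40 over the 34 and 0.03 over all genes. More cells of the corpus and cauda than of the caput had a high mitochondrial share: among principal cells, 1.73% in the caput, 33.5% in the corpus and 45.5% in the cauda had over 20% mitochondrial UMIs. Without those cells 14 of the 52 genes were called, against 16. A stricter gate that kept 143 caput and 292 corpus principal cells left 6, and a minimum of 100 UMIs left 10. The share of all genes called was not worked out under these settings.

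Against the cauda, 32 genes could be compared, and 6 were called in the caput's favour (6.57% of all 14096 genes) and 7 in that of the cauda (8.02%). The median log2 ratio of caput over cauda was 0.27 over the 32 and 0.11 over all genes. Between corpus and cauda 27 were compared, with 1 called higher in the corpus (3.36% of all 12731 genes) and 4 higher in the cauda (3.94%), and a median log2 ratio of -0.49 beside 0.04 over all genes. In all, 19 of the 52 genes, of which 35 could be compared at least once, were called in at least 1 of the 3 comparisons, as were 21.4% of all 14875 genes compared at least once. The stricter gate, with 199 cauda cells, left 6 calls between caput and cauda and 1 between corpus and cauda. The comparisons share libraries, so a gene's calls in 2 of them are not independent.

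The calls that the stricter gate did not make, with fewer cells and UMIs, were as follows. Between caput and corpus they were those of Slc6a13, Slc6a15, Slc6a18, Slc6a19, Slc7a4, Slc7a8, Slc7a9, Slc7a12, Slc7a15 and Slc38a1. Between caput and cauda they were those of Slc6a13, Slc7a4, Slc7a8, Slc7a12, Slc38a4, Slc43a1 and Slc43a3, and between corpus and cauda those of Slc1a1, Slc1a5, Slc7a12 and Slc43a3.

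**Figure D1:**
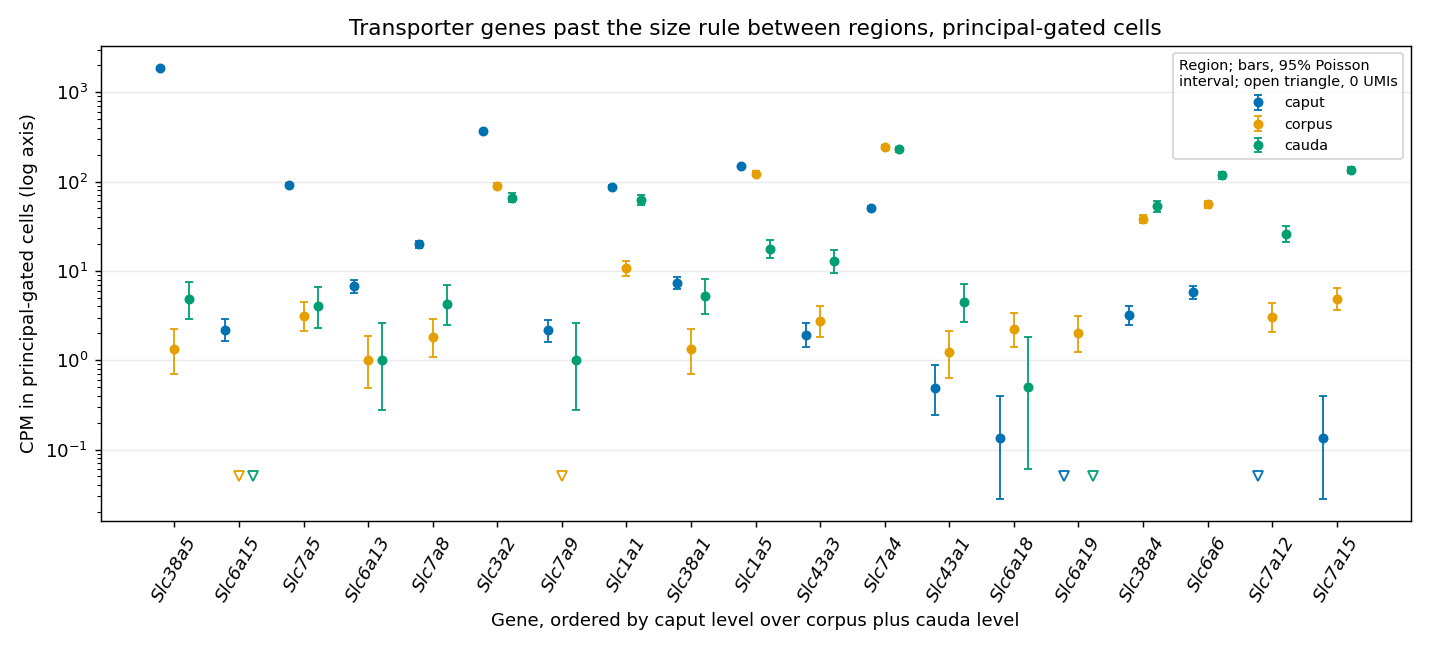
CPM (log axis) of the 19 transporter genes called different between regions in principal cells, 1 point per region with its 95% Poisson interval and an open triangle where no UMI was seen. Slc38a5 stands at 1870 CPM in the caput and below 5 CPM in the other regions, and Slc7a15 at 135 CPM in the cauda.

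Among the SLC1 carriers, Slc1a1 encodes a sodium-coupled transporter of glutamate, aspartate and cysteine. Its level in principal cells was 87.0 CPM in the caput (interval 83.2 to 91.0), 10.7 in the corpus and 62.3 in the cauda, so that the corpus lay below both ends of the duct. The caput level was 8.13-fold the corpus level (6.68 to 9.99), and the cauda level 5.82-fold (4.62 to 7.39). The call between corpus and cauda was lost under the stricter gate.

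Slc1a5, the sodium-dependent exchanger of glutamine and other neutral amino acids, followed another course. Caput and corpus principal cells had 149 and 122 CPM, and those of the cauda 17.7 CPM. Caput exceeded cauda 8.45-fold (6.67 to 10.9) and corpus exceeded cauda 6.93-fold (5.44 to 8.95). Slc1a5 was the 1 gene called higher in corpus than in cauda, and the stricter gate did not make that call. The other SLC1 genes were sparse in principal cells: Slc1a4, a carrier of alanine, serine and cysteine, had 1.53, 3.36 and 2.02 CPM, and the glial-type glutamate transporter gene Slc1a2 had 0 UMIs in the caput and 9 in the corpus.

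Slc3a2 encodes the heavy chain that carries the exchangers of Slc7a5, Slc7a6, Slc7a7, Slc7a8 and Slc7a11 to the membrane. In principal cells it was lower in each next region, with 366 CPM in the caput, 90.2 CPM in the corpus and 66.1 CPM in the cauda. The caput level was 4.06-fold the corpus level (3.78 to 4.35) and 5.54-fold the cauda level (4.89 to 6.28). The first of these ratios lay at the threshold, and it was no longer called when cells over 20% mitochondrial UMIs were left out or when cells were classed by cluster.

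Of its light chains, Slc7a5, an exchanger of large neutral amino acids, had 92.1 CPM in caput principal cells, 3.16 CPM in the corpus and 4.04 CPM in the cauda. These were ratios of 29.1 (20.5 to 43) and 22.8 (14 to 40). Slc7a8, a second exchanger of neutral amino acids, had 19.7, 1.83 and 4.29 CPM, or 10.8-fold (6.73 to 18.3) and 4.60-fold (2.84 to 7.98) more in the caput. The Slc7a8 call against the cauda was lost when cells were classed by cluster.

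Slc7a11, which takes up cystine in exchange for glutamate and so feeds glutathione synthesis, did not follow its heavy chain. It had 26.5, 23.0 and 21.2 CPM in principal cells of the caput, corpus and cauda and was not called in any comparison of regions. Slc7a6 stayed between 1.12 and 2.52 CPM.

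A further 3 SLC7 genes were at or near 0 in the principal cells of at least 1 region. Slc7a15 had 3 UMIs in caput principal cells (0.13 CPM), 48 in the corpus (4.89 CPM) and 534 in the cauda (135 CPM). The cauda level was 27.5-fold the corpus level (20.5 to 37.8) and 1001-fold the caput level, with an interval of 341 to 4868 that reflects the 3 caput UMIs. Slc7a12, a carrier of small neutral amino acids, had 0, 30 and 103 UMIs, or 0, 3.06 and 26.0 CPM. Set against a floor of 3 UMIs over the caput cells, it was at least 22.7-fold higher in the corpus and at least 193-fold higher in the cauda, and the cauda level was 8.50-fold the corpus level (5.61 to 13.2). Both genes thus had their lowest level in the caput and their highest in the cauda. Slc7a9, the light chain of the cystine and dibasic amino acid exchanger, had 48 UMIs in the caput (2.15 CPM), 0 in the corpus and 4 in the cauda (1.01 CPM), at least 7.05-fold higher in caput than in corpus. The call was lost on thinning to the smaller total, with a minimum of 100 UMIs and under the stricter gate. A ratio to the floor leaves out the counting error of the other region: the lower ends of the exact intervals were 17.4 and 154 for Slc7a12 and 5.51 for Slc7a9.

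Slc7a4 is related to the cationic amino acid transporters, though its own substrate is not well established. It had 50.7 CPM in caput principal cells, 245 CPM in the corpus and 230 CPM in the cauda. Both lower regions exceeded the caput, by 4.84-fold (4.51 to 5.20) and 4.54-fold (4.15 to 4.95). Corpus and cauda did not differ by the size rule. The call against the cauda was lost under classes from clusters, and both were lost under the stricter gate. Slc7a1, a carrier of arginine and lysine, had 37.2, 15.3 and 17.7 CPM and was not called.

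In the SLC6 family, Slc6a6, the sodium- and chloride-dependent carrier of taurine, had 5.74 CPM in the caput, 55.3 CPM in the corpus and 117 CPM in the cauda, so its principal-cell level was higher in each next region. The corpus was 9.64-fold (7.93 to 11.8) and the cauda 20.4-fold (16.8 to 25.0) above the caput. Immune markers in principal cells moved in the same order, with all 15 seen and summed levels of 47.5, 102 and 523 CPM, as did fibroblast markers, with 151, 515 and 4115 CPM, and Slc6a6 was at 132 to 261 CPM in immune cells. Both calls held under the stricter gate, which leaves out cells with an immune marker but not those with a fibroblast marker, and the log2 ratios of caput over corpus and over cauda were then -3.90 and -4.80, against -3.27 and -4.35. Slc6a13, which carries the inhibitory transmitter GABA as well as taurine, ran the other way with 6.73, 1.02 and 1.01 CPM, 6.60-fold (3.49 to 14.1) and 6.67-fold (2.55 to 24.8) higher in the caput. It rested on 10 corpus and 4 cauda UMIs, and under the stricter gate neither call was made and the direction against the cauda turned.

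The epithelial neutral amino acid carriers Slc6a18 and Slc6a19 were seen mainly in the corpus. Slc6a18 had 3, 22 and 2 UMIs in principal cells of the caput, corpus and cauda, a corpus level 16.7-fold the caput level (5.00 to 86.9). Slc6a19 had 0, 20 and 0 UMIs, at least 15.1-fold higher in corpus than in caput (lower end of the interval 11.2). The pair lie side by side on chromosome 13 (GRCm38, 73661752 to 73678023 and 73679745 to 73704865, both on the minus strand). Slc6a15, another carrier of neutral amino acids, was seen in principal cells of the caput alone, with 49 UMIs against 0 and 0, at least 7.19-fold higher there than in the corpus (lower end 5.63). Its caput level was 2.20 CPM, and 0 UMIs in cauda principal cells allow up to 0.93 CPM. Slc6a15, Slc6a18 and Slc6a19 were not called in any comparison with the cauda. The Slc6a19 call was lost with a minimum of 500 detected genes per cell and without cells over 20% mitochondrial UMIs. The noradrenaline, serotonin and dopamine carrier genes Slc6a2, Slc6a4 and Slc6a3 had 91, 10 and 3 UMIs over all cells kept.

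The SLC38 carriers move glutamine and other neutral amino acids with sodium, and Slc38a5 and Slc38a4 ran in opposite directions along the duct. Slc38a5 had 41672 UMIs in caput principal cells, 13 in the corpus and 19 in the cauda, or 1870, 1.32 and 4.79 CPM. The caput level was 1411-fold the corpus level (825 to 2651) and 390-fold the cauda level (250 to 648). Slc38a4 had the opposite course, with 3.19 CPM in the caput, 37.7 CPM in the corpus and 53.0 CPM in the cauda, 11.8-fold (9.16 to 15.5) and 16.6-fold (12.6 to 22.1) above the caput. Slc38a1, a glutamine carrier, was lowest in the corpus, with 7.40, 1.32 and 5.30 CPM, and caput exceeded corpus 5.59-fold (3.18 to 10.7). That call was lost under the stricter gate and when cells were classed by cluster.

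Slc38a2, the widely expressed member whose amount rises in many cells when amino acids run short, had 38.8, 67.5 and 71.6 CPM in principal cells and was not called. The lysosomal members Slc38a7 and Slc38a9, of which the latter signals arginine to the growth regulator mTORC1, stayed at 1.53 to 4.67 CPM and 2.96 to 6.82 CPM. Slc38a10 had 19.2, 7.54 and 8.07 CPM.

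Of the SLC43 genes, Slc43a3, a carrier of purine bases, had 1.93, 2.75 and 12.9 CPM in principal cells, 6.67-fold (4.36 to 10.2) and 4.68-fold (2.88 to 7.75) higher in the cauda. Slc43a1, a carrier of large neutral amino acids, had 0.49, 1.22 and 4.54 CPM, 9.20-fold (4.11 to 21.6) higher in cauda than in caput, a call lost on thinning to the smaller total, with a minimum of 100 UMIs and under the stricter gate. Fibroblast markers moved with both. All 8 were seen in principal cells of each region, and their summed level there was 151 CPM in the caput, 515 CPM in the corpus and 4115 CPM in the cauda, beside 106316 CPM in cauda stromal cells, where Slc43a3 itself had 213 CPM and Slc43a1 45.1 CPM. The part of stromal RNA in these 2 calls was not tested.

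The second question was whether Slc38a5 was a principal-cell gene. In the caput its UMIs were also found in the other classes. The basal cells had 1876 CPM (6294 UMIs), 100% of the principal level, whereas summed principal markers in basal cells stood at 20.3% of theirs. Caput immune cells had 1120 CPM, clear cells 733 CPM, stromal cells 722 CPM, endothelial cells 514 CPM and cells with ciliated markers 302 CPM, which were 59.9%, 39.2%, 38.6%, 27.5% and 16.2% of the principal level. Principal markers stood at 32.5%, 26.8%, 27.7%, 21.9% and 13.7% in the same classes. Single principal markers with at least 100 UMIs ran from 11.7% to 133% of their principal level in caput basal cells, with a median of 17.7%.

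The caput levels outside principal and basal cells moved with how cells were classed. Under the stricter gate Slc38a5 was 385 CPM in immune cells (27 cells, 29 UMIs), 634 CPM in clear cells and 241 CPM in stromal cells (57 cells, 49 UMIs), or 26.9%, 44.4% and 16.8% of the principal level, where principal markers stood at 18.9%, 19.1% and 14.8%. In classes from clusters it was 542 CPM in immune, 353 CPM in clear and 601 CPM in stromal cells, or 28.7%, 18.7% and 31.8%, and there the markers were at 59.1%, 18.8% and 32.7%, level with or above the gene. Basal cells had 2007 CPM under the stricter gate (40 cells) and 1587 CPM in classes from clusters, 140% and 84.1% of the principal level, beside markers at 9.73% and 17.8%.

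In the corpus and cauda, where principal cells had almost none, Slc38a5 was called in stromal cells of both regions and in basal cells of the corpus. Corpus basal cells had 54.2 CPM (55 UMIs) and were 6.61-fold above the other gated corpus cells (4.74 to 9.12). Stromal cells had 48.7 CPM in the corpus and 40.3 CPM in the cauda, 8.77-fold (6.51 to 11.8) and 5.98-fold (4.40 to 8.24) above the others. Cauda basal cells had 12.6 CPM from 6 UMIs and were not called. Within a class, levels were nevertheless 34.6-fold (26.6 to 46.0) higher in caput than in corpus basal cells. In stromal cells they were 14.8-fold (12.1 to 18.3) higher. In both classes summed principal markers also kept their largest share of the principal level in the caput. How much of the caput levels outside principal cells, basal cells included, was free RNA was not tested.

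**Figure D2:**
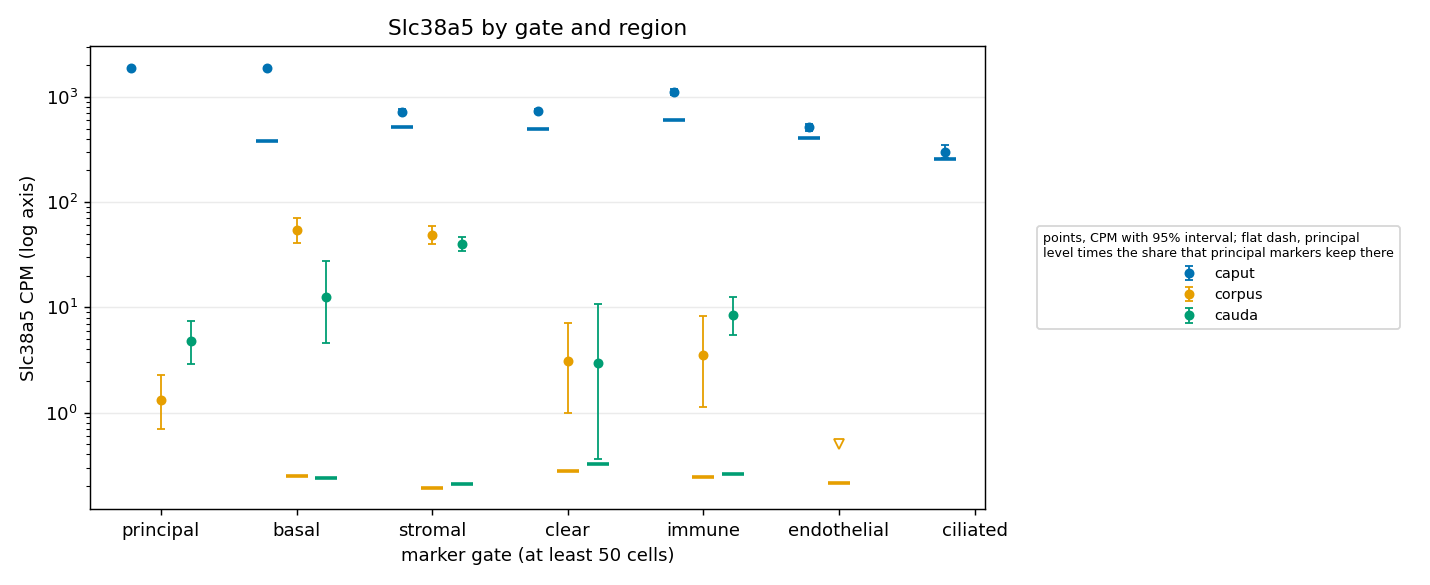
CPM of Slc38a5 (log axis) in each marker class with at least 50 cells, by region, with 95% Poisson intervals, and an open triangle where no UMI was seen. A flat dash gives the principal level times the share that summed principal markers keep in that class: caput basal cells, at 1876 CPM, lie far above their dash, and corpus and cauda basal and stromal cells stand at 12.6 to 54.2 CPM.

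Principal cells of 1 region were not alike in these genes. When caput principal cells were clustered with the 52 genes left out, 7 groups of 790, 310, 288, 245, 152, 66 and 54 cells formed, a split made after the data had been seen and given here as a description. They are named by number and by leading genes. Slc38a5 ranged from 116 CPM in group 6, led by cell division genes such as Plk1 and Cenpf, and 191 CPM in group 1, led by Teddm2 and Dpys, to 5491 CPM in group 2, led by Lypd8 and Ppy, and 6572 CPM in group 7, led by Wfdc18 and Sftpd with Mki67 among its top 10. Groups 3, 4 and 5 had 2024, 1960 and 1024 CPM. The intervals of groups 3 and 4 overlapped and no others did.

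Slc1a1 and Slc1a5 were each extreme in group 4, in opposite directions. Slc1a1 was 172 CPM in group 3, led by Defb47 and Spink13, and 6.06 CPM (19 UMIs) in group 4, led by Defb23 and Wfdc13. Slc1a5 was 364 CPM in group 4 (343 to 385) and 68.4 to 171 CPM in the other 6 groups. Slc7a11 was 50.4 CPM in group 4 and 45.3 CPM in group 6 and 2.75 CPM in group 2.

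The heavy chain and 1 of its light chains were highest in the same 3 groups. Slc3a2 had 471, 470 and 520 CPM in groups 1, 5 and 6 and 176 to 304 CPM in groups 2, 3, 4 and 7. Slc7a5 had 118, 116 and 147 CPM in groups 1, 5 and 6 and 29.0 to 88.7 CPM in the other 4. Slc6a13 had 10.9 and 11.6 CPM in groups 1 and 5 and 1.09 CPM in group 3.

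In the corpus, Slc1a5 was again uneven among 8 groups made in the same way. It stood at 275 CPM in group 4 (168 cells, led by Spint4) and 300 CPM in group 6 (110 cells, led by Muc15 and Rnase13), and at 61.8 to 120 CPM in the others. Group 2 (297 cells) was led by Apoe and Cd74, with the immune genes H2-Eb1 and Retnia among its top 10, and group 8 (12 cells) by Il33 and Hoxc9, with the connective tissue genes Mfap4, Eln and Mgp, so these groups of the principal gate had leading genes of other cell types. Without them Slc1a5 was still 61.8 to 120 CPM outside groups 4 and 6. Slc6a6 was low in groups 4 and 6, at 18.6 and 15.8 CPM, and 51.6 to 133 CPM elsewhere, or 51.6 to 76.3 CPM without groups 2 and 8. In the cauda, Slc7a15 was 197 CPM (172 to 224) in group 4 (165 cells, led by Azgp1 and Fxyd4) and 86.1 to 133 CPM in the other 5 groups, so it was seen in all of them. Of those 5, group 1 was led by Penk with haemoglobin genes and Dcn, group 3 by collagen and other matrix genes such as Col6a5 and Bgn, and group 6 (16 cells) by immune genes such as Cd69. The remaining groups 2 and 5 had 110 and 133 CPM.

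**Figure D3:**
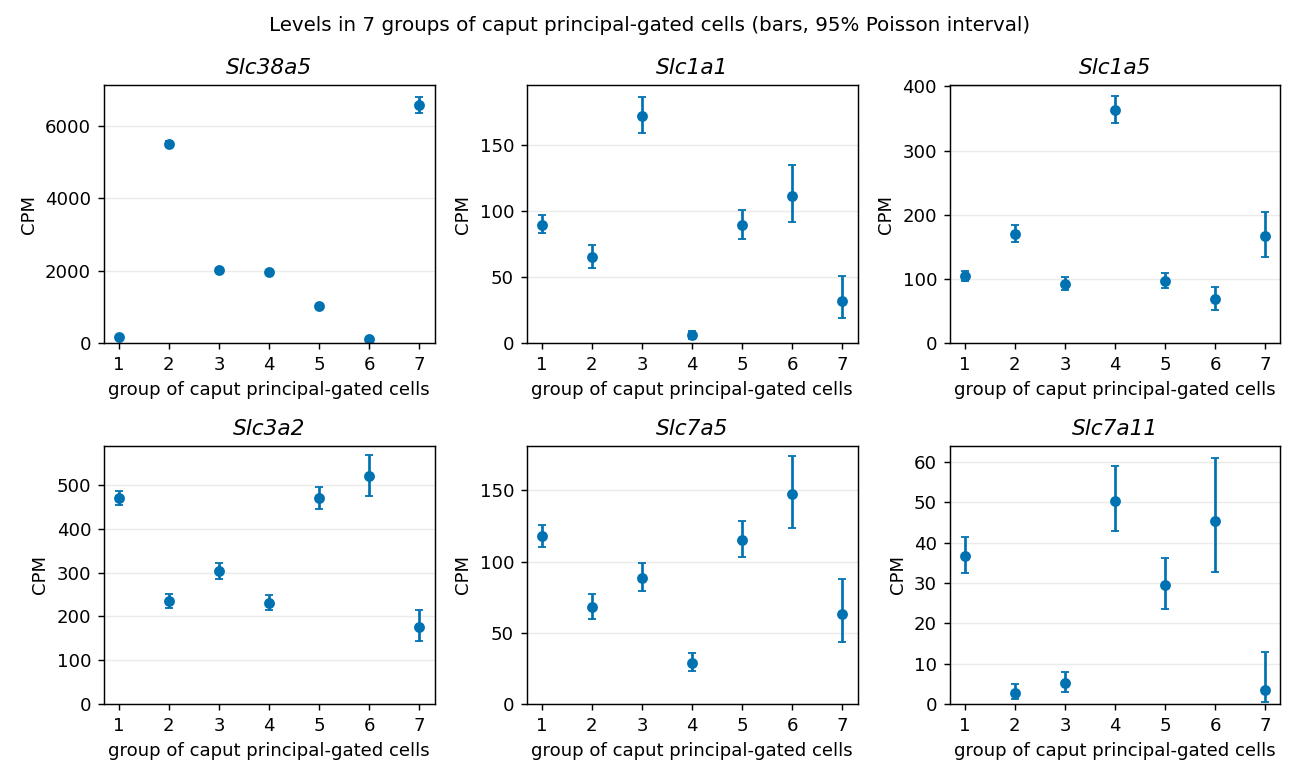
CPM of 6 transporter genes in the 7 groups of caput principal cells, with 95% Poisson intervals and linear axes from 0. Slc38a5 is at 5491 and 6572 CPM in groups 2 and 7, Slc1a5 is highest in group 4, where Slc1a1 is lowest, and Slc3a2 and Slc7a5 are highest in groups 1, 5 and 6.

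The third comparison set each cell class against the other gated cells of its own region, which asks which carriers mark which cells. Principal cells had 1 transporter called higher in the caput (1.48% of all 15715 genes), 4 in the corpus (3.28% of 14681) and 6 in the cauda (5.8% of 13701). More were lower in them than in the other classes: 13 in the caput (18.0% of all genes), 9 in the corpus (19.6%) and 11 in the cauda (17.3%). The 1 caput gene was Slc1a1, with 87.0 CPM against 16.3 CPM in the others (5.35-fold, 4.61 to 6.24), and in the cauda it was 62.3 against 4.23 CPM (14.7-fold, 10.4 to 21.5).

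Slc7a4 was called in principal cells of the corpus, 245 against 47.9 CPM (5.12-fold, 4.58 to 5.74), and of the cauda, 230 against 15.2 CPM (15.2-fold, 12.6 to 18.4). Slc7a12 and Slc7a15 were called in both regions too, and in the cauda they reached 26.0 against 0.59 CPM and 135 against 5.87 CPM. Cauda clear, stromal and immune cells had 2.22% to 4.19% of the principal Slc7a15 level, below the 4.40% to 6.74% of summed principal markers, and cauda basal cells had no UMI. Slc7a11 was called in principal cells of the cauda alone, at 21.2 against 1.06 CPM (20.04-fold, 10.1 to 45.3). Its principal level was similar in the caput and corpus, at 26.5 and 23.0 CPM. Clear, basal, stromal and immune cells had 26.1% to 47.2% of it in the caput, 12.2% to 42.7% in the corpus and 2.35% to 9.91% in the cauda. The shares of summed principal markers fell in the same order, and the part of free RNA was not tested. Slc38a4 was called in cauda principal cells at 53.0 against 11.6 CPM. Slc6a6 was the reverse in the caput, with 5.74 CPM in principal cells and 417 CPM in endothelial, 132 CPM in immune, 123 CPM in clear and 194 CPM in ciliated-marker cells.

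Clear cells had 4 called higher in the caput (3.04% of all genes), 1 in the corpus (3.6%) and 1 in the cauda (4.08%), while none was lower in the caput, 1 in the corpus (4.07%) and 2 in the cauda (4.68%). Slc43a2, a carrier of large neutral amino acids, was called in each, with 22.6 CPM in the caput, 38.7 CPM in the corpus and 67.2 CPM in the cauda. These were 6.62-fold (4.84 to 9.01), 7.47-fold (5.28 to 10.5) and 5.15-fold (3.61 to 7.22) the level of the other cells. The other 3 caput genes were Slc6a2, the noradrenaline carrier, with 11.5 against 0.59 CPM (19.6-fold, 10.9 to 36.5), Slc38a4 with 19.2 against 4.23 CPM and the lysosomal carrier Slc36a1 with 4.65 against 1.14 CPM. Caput stromal cells had Slc36a1 at 4.62 CPM (8 UMIs, 1.99 to 9.10), level with caput clear cells (15 UMIs, 2.60 to 7.67). No Slc6a2 UMI was seen in the clear cells of the corpus or cauda, and the caput level was 6.22-fold the level that 3 UMIs would give in the corpus, with 4.81 as the lower end of the interval.

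Basal cells had 5 called higher in the caput (3.55% of all genes), 7 in the corpus (3.01%) and 3 in the cauda (3.28%), and 2 (3.75%), 1 (2.51%) and 3 (3.12%) called lower. Slc7a6, which exchanges cationic for neutral amino acids, had 23.6, 26.6 and 29.4 CPM in basal cells and was 7.07-fold (5.20 to 9.58), 8.30-fold (5.01 to 13.5) and 6.30-fold (3.24 to 11.5) above the other cells. Slc6a8, the creatine carrier, had 14.3, 22.7 and 52.5 CPM and was called in each region as well. Both were called in all 3 libraries, although cauda basal cells gave only 14 and 25 UMIs.

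Slc7a8 was called in caput basal cells, 76.0 against 18.1 CPM, and in corpus basal cells, 57.1 against 5.18 CPM (11-fold, 7.76 to 15.6), and had 50.4 CPM in the cauda. Slc3a2, its heavy chain, had 350, 236 and 258 CPM in basal cells. Slc1a4 and the glutamate carrier Slc1a3 were called in caput and corpus basal cells, Slc1a4 with 8.94 and 16.8 CPM. Slc1a3 had 3.88 CPM (13 UMIs, 2.06 to 6.63) and 8.87 CPM (9 UMIs, 4.05 to 16.8) there. Stromal cells were similar in Slc1a3, with 3.46 CPM in the caput (1.27 to 7.54) and 5.62 CPM in the corpus (2.90 to 9.82). Slc7a1 was called in the corpus, 69 against 14.7 CPM, and in the cauda, 63.0 against 14.4 CPM. Cauda clear cells alone had 44.8 CPM of Slc7a1 (30 UMIs, 30.2 to 63.9), an interval that overlapped that of cauda basal cells (42.5 to 89.9).

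Stromal cells had 5 called higher in the caput (6.43% of all genes), 6 in the corpus (7.73%) and 6 in the cauda (7.67%), and none, 4 (5.36%) and 6 (11%) called lower. Slc43a3 stood out with 139, 233 and 213 CPM, against 13.4, 8.47 and 26.1 CPM in the other cells, ratios of 10.3 (8.77 to 12.1), 27.5 (22.6 to 33.7) and 8.14 (7.01 to 9.48). Endothelial cells, which are among the others here, had Slc43a3 at 218 CPM (caput) and 137 CPM (corpus), so that in the caput the stromal level was not the highest. Slc43a1 had 27.7, 43.6 and 45.1 CPM, with ratios of 27.1 (17.0 to 43.5), 28.6 (18.0 to 47.4) and 7.78 (5.64 to 10.9). Slc7a2, a second arginine carrier, was called in all 3 regions at 6.56 to 9.46 CPM. Endothelial cells had 7.64 CPM of it in the caput (10 UMIs) and 12.2 CPM in the corpus (4 UMIs), against 7.50 and 6.56 CPM in stromal cells.

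Some stromal calls held in only part of the duct. Slc36a4, an amino acid carrier of the proton-coupled SLC36 family, was called in the caput and corpus at 16.2 and 17.8 CPM. Stromal cells were not its highest class there. Ciliated-marker cells of the caput had 19.1 CPM (12 UMIs) and endothelial cells of the corpus 21.3 CPM (7 UMIs). Slc38a11 was called in the caput, from 19 UMIs, and Slc38a10 in the corpus, at 53.9 CPM. Slc1a5 was even across regions, with 184, 186 and 185 CPM in stromal cells, and was called in the cauda alone, where the other cells had 39.6 CPM (4.66-fold, 4.09 to 5.32). In principal cells the same gene was 8.45-fold higher in caput than in cauda.

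Immune cells had none called higher in the caput, where 4.17% of all genes were, 2 in the corpus (7.32%) and 2 in the cauda (7.74%). More were called lower in the corpus and cauda, 3 (4.55%) and 6 (7.44%), against none in the caput. Slc1a1, Slc7a4 and Slc38a4 were lower in both, and Slc7a11, Slc7a12 and Slc7a15 in the cauda, all of them genes called higher in cauda principal cells. Slc38a1 had 49.2 CPM in corpus immune cells against 2.84 CPM in the others (17.3-fold, 11.7 to 25.8), and 28.2 and 22.2 CPM in the caput and cauda. Slc38a9 had 18.3 CPM in the corpus. Slc43a2 and Slc36a1 were called in cauda immune cells, at 39.9 and 16.2 CPM. Cauda clear cells had 67.2 CPM of Slc43a2 and 16.4 CPM of Slc36a1 (11 UMIs), above and level with cauda immune cells. Slc6a6 was at 132, 176 and 261 CPM in immune cells of the caput, corpus and cauda.

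**Figure D4:**
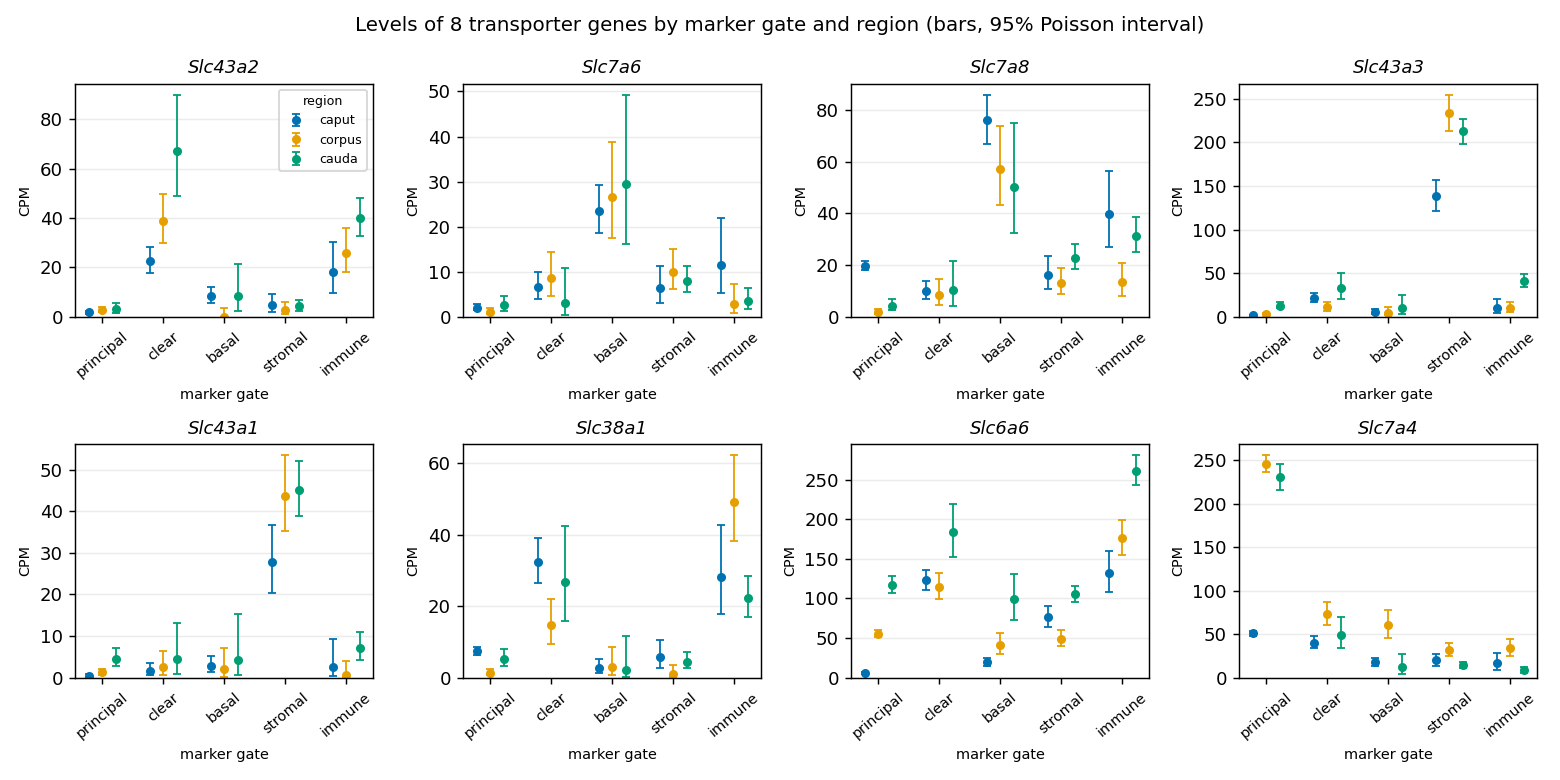
CPM of 8 transporter genes by marker class and region, with 95% Poisson intervals and linear axes from 0. Among the 5 classes plotted, Slc43a2 is highest in clear cells, Slc7a6 and Slc7a8 in basal cells, Slc43a3 and Slc43a1 in stromal cells, and Slc7a4 in principal cells, in each region, whereas Slc6a6 is spread over classes and lowest in caput principal cells at 5.74 CPM.

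Outside principal cells fewer of these genes could be compared between each pair of regions, and fewer were called. In clear cells 3 of 22 compared were called higher in caput than in corpus (2.36% of all genes), Slc38a5, Slc7a5 and Slc6a2. Against the cauda only Slc38a5 was, of 23 compared (2.3%). Basal cells had Slc38a5 higher in the caput in both comparisons (1.3% and 1.34%), Slc6a6 higher in cauda than in caput, 98.6 against 19.4 CPM (5.09-fold, 3.42 to 7.52; 1.78%), and Slc7a4 higher in corpus than in cauda (1.11%). In basal cells 20 genes were compared between caput and corpus, 19 between caput and cauda and 12 between corpus and cauda. Slc6a6 was thus lower in the caput than in the cauda in both basal and principal cells. Summed fibroblast markers of basal cells differed in the same direction, at 160 CPM (caput) against 7965 CPM (cauda). Their immune markers did too, at 89.4 against 363 CPM. Cauda stromal cells had Slc6a6 at 106 CPM and cauda immune cells at 261 CPM. The part of stromal and immune RNA in the basal Slc6a6 call was not tested.

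Stromal cells had 4 of 21 compared called higher in caput than in corpus (3.56% of all genes), Slc38a5, Slc7a5, Slc1a1 and Slc38a11. Of 27 compared, 2 were higher in caput than in cauda (5.54%), Slc38a5 and Slc1a1. Marker sums of fibroblasts and of muscle cells and pericytes also differed between regions in this class. The part of cell mix in the stromal calls was not tested. Immune cells had Slc38a5 and Slc7a5 against the corpus (3.77%, 18 compared) and these 2 with Slc1a1 and Slc7a1 against the cauda (4.94%, 20 compared). Slc43a3 was 4.16-fold (2.38 to 7.85) higher in cauda than in corpus immune cells (2.25%, 18 compared). Fibroblast markers in immune cells summed to 1054 CPM in the corpus and 12671 CPM in the cauda, beside 106316 CPM in cauda stromal cells. The part of stromal RNA in the Slc43a3 call was not tested. Slc38a5, Slc7a5 and Slc1a1, the genes called most often here, were also those high in caput principal cells, whose markers were found at 20.3% to 32.5% of their level in the other caput classes. In caput immune, clear and stromal cells Slc7a5 had 30.8, 35.0 and 21.9 CPM, or 33.4%, 38% and 23.8% of its principal level, beside marker shares of 32.5%, 26.8% and 27.7%. Slc1a1 had 21.8, 21.4 and 16.7 CPM there, or 25.1%, 24.6% and 19.2%. Slc1a1 thus lay below the marker share in all 3 classes, and Slc7a5 below it in stromal cells, near it in immune cells and above it in clear cells. The part of free RNA in these calls was not tested.

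Genes that work beside the carriers were read in principal cells from 6 lists. Between caput and corpus, 7.18% of all genes compared were called for the caput and 6.81% for the corpus. The median log2 ratio over all genes was 0.03. Between caput and cauda, 6.57% were called for the caput and 8.02% for the cauda. Among 22 other transporters of amino acids, peptides and transmitters, 16 could be compared between caput and corpus, of which 3 were called for the caput and 1 for the corpus, with a median log2 ratio of 0.48. Slc16a10, a carrier of aromatic amino acids, had 77.9, 6.11 and 3.78 CPM in caput, corpus and cauda, and the peptide carrier gene Slc15a2 38.5, 7.95 and 7.82 CPM. The caput levels were 12.7-fold (9.85 to 16.8) and 4.84-fold (3.84 to 6.19) those of the corpus. Slc18a1, the vesicular monoamine carrier, had 1.08 CPM in caput and 13.1 CPM in corpus cells.

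For cystine, cysteine and glutathione use, 16 of 18 genes were compared, of which 2 were called for the caput and 4 for the corpus, with a median log2 ratio of -0.10. Cdo1, which oxidises cysteine on the way to taurine, had 1023, 460 and 205 CPM in the 3 regions and was 4.98-fold (4.65 to 5.35) higher in caput than in cauda, while the taurine carrier Slc6a6 had its lowest level in the caput. Cbs and Cth, which make cysteine from homocysteine, ran from 1.03 to 45.5 and 164 CPM and from 31.5 to 179 and 72.4 CPM. Ggt7 and Ggct were higher in the caput, with 43.4 against 0.71 CPM and 119 against 23.5 CPM in the corpus.

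A list of 16 genes held Atf4, the transcription factor that answers amino acid shortage, and its targets. Between caput and corpus 15 were compared, of which 2 were called for the caput (Stc2 and Cebpb) and 3 for the corpus. Those 3 were Psat1, Phgdh and Psph, the enzymes of serine synthesis, at 199, 143 and 430 CPM in the corpus against 18.1, 24.1 and 40.2 CPM in the caput. Atf4 itself had 164, 124 and 133 CPM, and the median log2 ratio of the list was 0.28. In the same list of the caput and cauda comparison, 1 was called for the caput and 2 for the cauda.

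Of 17 genes of amino acid sensing by mTORC1, 17 were compared in each pair of regions and 1 was called, Rragb, with 1.66 CPM in caput and 7.54 CPM in corpus cells. The list's median log2 ratio was 0.42 for caput over corpus and 0.55 for caput over cauda, beside 0.03 and 0.11 over all genes. Among 17 genes that make or break down transmitters, 12 were compared between caput and corpus, with 2 called in each direction. Glul, which makes glutamine from glutamate, had 844, 169 and 110 CPM and was 4.98-fold (4.74 to 5.24) higher in caput than in corpus. Pnmt, which makes adrenaline, had 0.36, 50.3 and 245 CPM. Of 8 creatine and osmolyte genes 7 were compared, none was called between caput and corpus, and Gatm was higher in the cauda, with 10.1 CPM against 2.15 CPM in the caput.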

How the data were processed

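The deposited matrix holds UMI counts per gene symbol and cell, whole numbers throughout, as the authors deposited them. Alignment to GRCm38.p6 used STAR 2.7.3a and counting of UMIs used UMI-tools (version not given), per the submitters' processing notes. Per the labels' protocols, digested tissue was strained, red cells were lysed, and libraries were made with the Singleron GEXSCOPE kit. The sources used here do not give how cells were called, nor a cell annotation. GENCODE M21 (GRCm38) gave the positions of all 52 genes.

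A minimum of 200 detected genes per cell removed 22 cells of the caput, 128 of the corpus and 140 of the cauda. A cell took a class other than principal when it had at least 3 of its markers, at 2 times or more the pooled level of its library, no second class at 33.3% or more of the first, and principal markers under their pooled level. Principal cells had at least 3 principal markers, at 0.5 times or more the pooled level, and other markers together under 0.5 times theirs. No doublet caller was run, but cells passing for more than 1 class (603, 350 and 241) were left out, and 403, 823 and 1693 cells had no class. Within 20% of a principal threshold lay 398, 507 and 425 cells, and of another class's threshold 345, 206 and 850. The stricter gate asked for 4 markers and no marker of clear, basal, muscle, immune, endothelial, germ or ciliated cells other than its own. The thresholds were set after seeing the data, and the genes, markers, lists and size rule were chosen with earlier results of these data known.

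UMIs were summed per region and class (Python 3.11.15, numpy 2.4.6, scipy 1.17.1). CPM had exact Poisson 95% intervals and ratios exact conditional binomial ones, a count of 0 was set to 3 UMIs for a ratio, and the calculation was tested on simulated counts. Named were the genes called between regions in principal cells, the 5 with the highest CPM in each class, and then those called between classes, 30 in all. Of each list, genes called in principal cells and up to 4 by summed UMIs were named. Transporter genes named outside this rule were chosen after their values were seen. Alternatives were TMM scaling (edgeR 4.0.16, R 4.3.3), thinning, 2 cell filters, 2 count minimums, a lower size rule, the stricter gate and Leiden clusters (scanpy 1.11.5, igraph 0.11.9). Of the genes in the lists and marker sets, 98 of 106 and 107 of 108 were in the matrix. The levels of 2 list genes are not reported here.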

Additional observations from a re-analysis of the deposited data

How the results depend on the processing

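No paired analysis was possible because each region had 1 library and the replicate number 1 pairs nothing. TMM scaling shifted the log2 ratio of caput over corpus in principal cells by 0.07, of caput over cauda by 0.12 and of corpus over cauda by 0.04, and kept all 34 calls made in principal cells. Thinning to the smaller total kept 32 of them and lost those of Slc7a9 (caput and corpus) and Slc43a1 (caput and cauda), while at least 500 detected genes per cell kept 33, leaving out cells over 20% mitochondrial UMIs 32, and classes from clusters 30 with 5 added. With at least 100 UMIs, 10 genes were called between caput and corpus principal cells in place of 16, and 11 in place of 21 over the 12 comparisons of regions in other classes. With a ratio of at least 2 and an interval beyond 1, the calls were 13 in place of 5 between corpus and cauda, 74 in place of 21 in other classes and 244 in place of 114 between classes. The stricter gate gave 6 between caput and corpus, 6 between caput and cauda in place of 13, 1 between corpus and cauda, 2 in other classes (5 comparisons had enough cells) and 42 between classes (10 of 15 comparisons). It kept 13 of the 34 calls, and it left 199 or fewer caput and cauda principal cells, so fewer UMIs were compared. Under it the log2 ratio of Slc6a13 between caput and cauda turned to -0.16, and 5 ratios could not be given, with no more than 3 UMIs on either side. Of 198 ratios of single genes under the alternatives, 162 stayed within their first interval, 35 moved outside it with their direction kept and 1 reversed. Depth limits the genes under 100 UMIs, 20 of the 52. The share of all genes called was not worked out under any alternative. Its counts of transporter genes can thus be read only beside those of the main settings.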

Other observations

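Ciliated-marker cells, a class of 85 caput cells outside the 5 classes compared, held transporter levels of their own. These values were looked at after the data had been seen. Slc7a9, the light chain of the cystine and dibasic amino acid exchanger, had 123 CPM there (77 UMIs, interval 96.7 to 153), against 2.15 CPM in caput principal cells. Slc38a1 had 71.6 CPM (52.2 to 95.8) and Slc38a3, a glutamine carrier, 31.8 CPM (19.4 to 49.1), which is 20 of the 31 Slc38a3 UMIs of all cells kept. Slc7a15, high in cauda principal cells, had 35.0 CPM in these caput cells (22 UMIs, 21.9 to 53.0) and 3 UMIs in caput principal cells. Slc6a13 had 25.5 CPM (16 UMIs). All 7 ciliated markers were seen, and summed principal markers stood at 13.7% of their principal level, while the corpus had 7 such cells and the cauda none, so no other library could be compared.

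Endothelial-marker cells of the caput (206 cells) had 218 CPM of Slc43a3 and 417 CPM of Slc6a6, and 352 CPM of Slc3a2.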
